A study of Homo sapiens with 8 samples.

Results

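EGR1, EGR2, EGR3, IER2, IER3, IER5, MYC, KLF4, KLF6 and NR4A1 are 10 immediate early genes, and they were followed across 8 RNA libraries of human urothelial cells. They were found by name: each is the row of the deposited count table whose gene name equals the symbol. That gave 10 of the 58735 genes in the table. The list itself was drawn up with earlier results of these data known. For 24 h, 4 cultures were exposed to 20 mU per ml of glucose oxidase, which turns glucose and oxygen into hydrogen peroxide, and 4 control cultures stayed untreated. All 8 cultures were of SV-HUC1, an established urothelial line that was immortalised with SV40, so every result is from 1 line that carries viral T antigen. No group given peroxide alone or an inactive enzyme, and no time before 24 h, was analysed here. Libraries of both groups are numbered 1 to 4, and a glucose oxidase library and the control library of equal number are called a pair below. The submitters write of independent experiments, but no label states that an equal number marks the same one.

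Immediate early genes are switched on within minutes of a growth factor, a stress or fresh serum, without new protein synthesis, because the factors that bind their promoters are already in the cell and need only be phosphorylated. Much of this runs through the MAP kinases ERK and p38, which act on ternary complex factors of the ETS family that sit beside serum response factor (SRF) on a DNA element called the CArG box. The products are mostly short-lived transcription factors, and their RNA usually decays again soon after a single stimulus; oxidants are among the stimuli known to switch them on.

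The promoters of EGR1 and EGR2 are shown because they are the members in which a search of the RefSeq windows found CArG boxes. Windows of 250 bases before to 50 bases after a RefSeq start (GRCh38.p14) were at hand for 7 of the 10 members, 10 windows in all, and for EGR3, IER3 and MYC none was used here. The EGR1 window lies at chr5:138465229-138465528 on the plus strand, and the EGR2 window, 1 of 3, at chr10:62816317-62816616 on the minus strand. Both are written 5′ to 3′ in the direction of the gene, with CArG boxes in capitals.
EGR1: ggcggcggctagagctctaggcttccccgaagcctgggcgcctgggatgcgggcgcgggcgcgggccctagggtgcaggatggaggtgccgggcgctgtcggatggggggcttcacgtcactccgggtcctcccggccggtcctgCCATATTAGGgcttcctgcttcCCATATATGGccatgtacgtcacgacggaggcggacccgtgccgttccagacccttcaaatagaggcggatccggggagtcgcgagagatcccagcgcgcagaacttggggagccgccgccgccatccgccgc
EGR2: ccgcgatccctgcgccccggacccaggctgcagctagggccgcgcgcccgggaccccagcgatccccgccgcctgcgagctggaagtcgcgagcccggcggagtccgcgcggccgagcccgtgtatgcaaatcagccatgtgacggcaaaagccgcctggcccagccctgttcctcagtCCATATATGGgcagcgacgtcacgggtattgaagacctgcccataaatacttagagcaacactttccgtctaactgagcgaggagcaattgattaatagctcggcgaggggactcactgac

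The EGR1 window held CArG boxes at -105 to -96 and at -83 to -74 from the start, and the EGR2 window held 1 at -71 to -62. Both strands of each window were searched for 8 motifs. A CArG box stood in 1.29% of all 35116 promoter windows of this length. The EGR site GCGNGGGCG, to which EGR proteins bind, was found in 1 window each of EGR1, EGR2, KLF4 and KLF6 and in 9.43% of all windows. The GC box GGGCGG was found in windows of KLF4, KLF6, EGR2, NR4A1 and IER2 and in 45% of all windows, and in KLF4 and KLF6 a GC box shared bases with the EGR site. The ETS site CCGGAA was found in a window of IER5, NR4A1 and IER2 and in 17.2% of all windows. Other spellings of an ETS site were not searched, so a window without these letters, such as that of EGR1, may still hold one. None of the 10 windows held the cyclic AMP response element TGACGTCA, the AP-1 site TGANTCA, the TATA box letters TATAAA or an NF-kB site, which stood in 1.85%, 4.95%, 11.5% and 5.91% of all windows. These are matches of letters only. Of 168 tested genes whose window held a CArG box, 10.7% rose and 8.93% fell in the test described below, against 8.52% and 7.43% of the 11312 tested genes with a window but no CArG box.

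Total counts per library were 21437267 to 27183692 in the glucose oxidase libraries and 21653952 to 23543702 in the controls, and 17413 genes, all 10 members among them, passed the filter on low counts. The TMM factors that scale CPM were 0.953 to 1.16 with glucose oxidase and 0.768 to 1.17 in controls, lowest in control 3. Of 15 urothelial and epithelial markers 12 averaged at least 1 FPKM, the keratins KRT5, KRT7, KRT8, KRT13, KRT17, KRT18 and KRT19 with GATA3, CDH1, EPCAM, UPK1B and UPK2 among them, while the uroplakins UPK1A and UPK3A and the basal factor TP63 stayed near 0. The summed level of that list was 1301 to 1477 FPKM with glucose oxidase and 1778 to 2548 FPKM in controls, without overlap. In the test described below, 4 of the 13 markers tested fell, the keratins KRT5, KRT8, KRT13 and KRT19, and GATA3 rose. Of all genes, 6.97% fell and 7.51% rose. KRT19 averaged 361 FPKM with glucose oxidase and 664 FPKM in controls, and GATA3 averaged 19.3 FPKM and 13.9 FPKM. The part of these differences in the results below was not tested. Fibroblast markers COL1A2, COL3A1, PDGFRA, DCN and LUM, endothelial markers PECAM1 and VWF, and leukocyte markers PTPRC, CD3E, CD68, LYZ and MS4A1 were below 0.1 FPKM in every library. The endothelial marker CDH5 averaged 0.529 FPKM with glucose oxidase and 0.562 FPKM in controls, and KDR averaged 0.0521 FPKM with glucose oxidase and 0.0713 FPKM in controls; COL1A1 and CD14 were above 1 FPKM on average in both groups. These are bulk samples, in which fewer cells of a type and less RNA per cell cannot be told apart. In expression the libraries divide into replicates 1 and 2 and replicates 3 and 4 in both groups; that division was found from the values and is not in the labels.

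EGR1, NR4A1, MYC and KLF4 rose with glucose oxidase when each treated library was set against the control of its pair: EGR1 2.55-fold, NR4A1 2.59-fold, MYC 2.11-fold and KLF4 1.86-fold. The changes of EGR2, EGR3, IER2, IER3, IER5 and KLF6 did not pass the test. The test was edgeR's quasi-likelihood fit over all 17413 genes with the replicate number as a block and p-values adjusted over all genes, and it called 4 of the 10 members higher and none lower, where 7.51% of all genes were called higher and 6.97% lower. The median log2 change of the 10 members was 0.74, against -0.01 over all genes tested. Since the members were chosen with earlier results of these data known, such comparisons with all genes describe the list and do not test it. The main fit, edgeR without the block, called 0 members and 0.0% of all genes. In that fit 2 members, MYC and NR4A1, and 1284 genes had an unadjusted p below 0.05, and DESeq2 without the block called 0 members and 0.19% of genes higher. No label states that equal numbers mark matched cultures. When the block was replaced by a single term that separates replicates 1 and 2 from replicates 3 and 4, EGR1, NR4A1, MYC and KLF4 were again called, with 3.72% of genes called higher and 3.07% lower. That split was found from the same expression values, so calls with this set term, here and below, describe these libraries only. DESeq2 with the block called EGR1, NR4A1, MYC and KLF4 too, with 8.53% of genes called higher, and gave EGR2 and EGR3 no adjusted p.

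By length-scaled level the members fall into 7 well-expressed genes and 3 low ones. In glucose oxidase libraries IER3 averaged 60.8 ± 9.2 FPKM (SD, n = 4), MYC 43.5 ± 9.5, IER5 30.4 ± 6.3, EGR1 19.9 ± 12.9, KLF4 17.0 ± 3.5, IER2 15.7 ± 1.3 and KLF6 13.4 ± 2.2 FPKM. NR4A1 averaged 0.639 ± 0.249 FPKM in them, EGR2 0.320 ± 0.076 and EGR3 0.232 ± 0.092 FPKM. In control libraries the order by FPKM was IER3 at 46.2 ± 26.2, IER5 at 32.8 ± 5.0, MYC at 23.1 ± 14.1, IER2 at 14.0 ± 4.3, KLF6 at 11.5 ± 3.0, KLF4 at 10.4 ± 6.5, EGR1 at 9.47 ± 8.01, NR4A1 at 0.269 ± 0.196, EGR2 at 0.198 ± 0.191 and EGR3 at 0.174 ± 0.133. Only the step down to NR4A1 separated neighbours whose libraries did not overlap, below KLF6 with glucose oxidase and below EGR1 in controls; all other neighbours in both orders overlapped. EGR1 thus stood at rank 4 with glucose oxidase and at rank 7 in controls, and MYC at rank 2 with glucose oxidase and at rank 3 in controls.

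**Figure D1:**
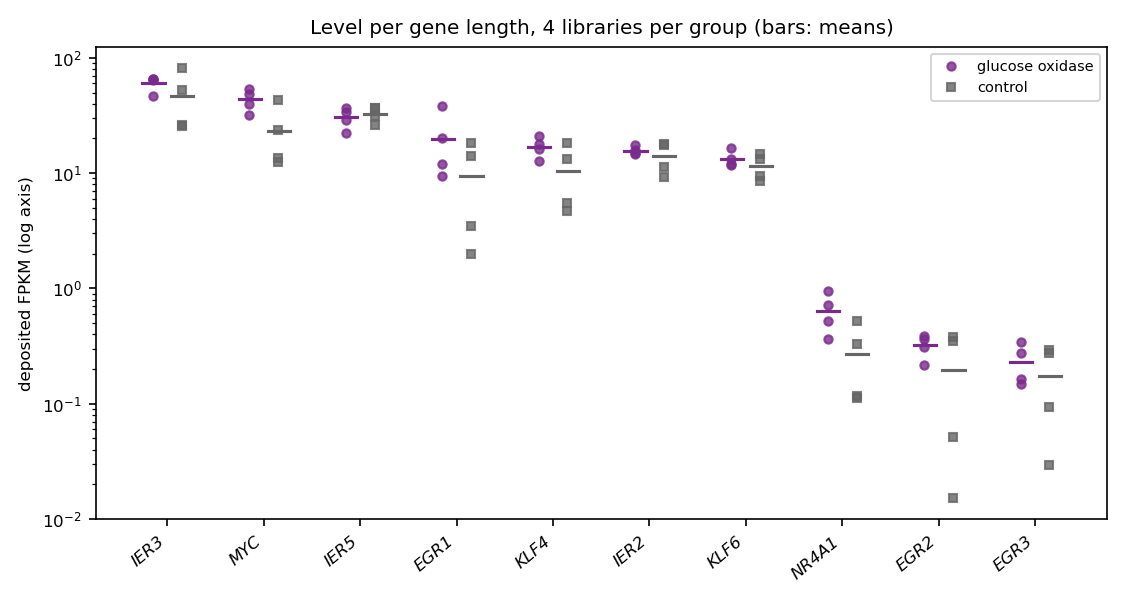
Deposited FPKM of the 10 genes on a log axis, 1 point per library, with glucose oxidase libraries left of controls and a bar at each group mean (n = 4). NR4A1, EGR2 and EGR3 lie below 1 FPKM in every library, and the control points of EGR1, KLF4 and EGR2 spread more widely than the treated ones.

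EGR1, a zinc finger transcription factor that is the best known member of the family, lies at chr5:138465490-138469315 on the plus strand (GRCh38, GENCODE release 29) and has 2 exons. It had 64.4, 124, 37.8 and 29.9 CPM (read counts scaled to library size by TMM) in glucose oxidase libraries 1 to 4, against 45.5, 60.0, 6.09 and 10.9 CPM in control libraries 1 to 4. Each treated library was above its own control, yet the groups overlapped, since treated libraries 3 and 4 lay below controls 1 and 2. The means were 64.0 ± 42.6 CPM with glucose oxidase and 30.6 ± 26.3 CPM in controls (SD, n = 4 each). By pair, the log2 change was 0.50, 1.04, 2.62 and 1.45. The blocked edgeR fit gave a log2 change of 1.35 ± 0.21 (SE) with an adjusted p of 0.000114. Without the block the same log2 change was 1.06 ± 0.68, with an adjusted p of 0.706.

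EGR2 and EGR3 bind the same kind of DNA site as EGR1 and are best known from myelinating cells, muscle spindles and lymphocytes. EGR2 lies at chr10:62811996-62919900 on the minus strand and EGR3 at chr8:22687659-22693302 on the minus strand. EGR2 had 43, 35, 19 and 30 reads in glucose oxidase libraries 1 to 4 and 33, 34, 1 and 4 reads in control libraries 1 to 4. That is 1.45, 1.41, 0.798 and 1.16 CPM with glucose oxidase against 1.43, 1.34, 0.0553 and 0.192 CPM in controls. Pairs 1 and 2 were almost level, and the low values were those of controls 3 and 4. In pair 3 the CPM ratio was 14.4, with an exact 95% counting interval of 2.29 to 600, and in pair 4 it was 6.02, with an interval of 2.12 to 23.5; both intervals cover counting error only. The blocked log2 change of EGR2 was 0.96 ± 0.46 with an adjusted p of 0.159 (edgeR).

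EGR3 had 40, 43, 19 and 19 reads in glucose oxidase libraries 1 to 4 and 32, 38, 8 and 3 reads in controls 1 to 4. Its blocked log2 change was 0.58 ± 0.40 with an adjusted p of 0.357 (edgeR). In pair 4 the CPM ratio of EGR3 was 5.08, with an exact 95% counting interval of 1.496 to 26.8, and in pair 3 it was 1.80, with an interval of 0.754 to 4.76. EGR2 and EGR3 thus rest on at most 43 reads in any library. EGR3 also shares 164 exon bases, 3.38% of its exon length, with AC055854.1 on the opposite strand, which had up to 135 reads with glucose oxidase and 199 in controls. With the strand setting of the counting not given in the sources used here, reads from that stretch cannot be told apart.

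NR4A1, an orphan nuclear receptor also called NUR77, lies at chr12:52022832-52059507 on the plus strand. It had 159, 178, 91 and 70 reads in glucose oxidase libraries 1 to 4 and 57, 101, 15 and 17 reads in controls 1 to 4. In CPM these are 5.36, 7.15, 3.82 and 2.70 with glucose oxidase against 2.46, 3.97, 0.830 and 0.817 in controls. NR4A1 was higher in each of the 4 pairs, by log2 changes of 1.10, 0.84, 2.10 and 1.63. The groups overlapped, because control 2 exceeded treated libraries 3 and 4. The blocked edgeR fit gave a log2 change of 1.37 ± 0.25 with an adjusted p of 0.000803. An opposite-strand lincRNA, AC025259.3, shares 10.3% of its exon bases and had at most 2 reads in any library.

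MYC, a basic helix-loop-helix factor that drives growth and ribosome synthesis, lies at chr8:127735434-127741434 on the plus strand. It had 149, 166, 119 and 97.3 CPM in glucose oxidase libraries 1 to 4, against 72.6, 134, 36.9 and 40.3 CPM in controls 1 to 4. Of the controls, library 2 alone exceeded any treated value, and all 4 pairs were higher with glucose oxidase, by log2 changes of 1.04, 0.31, 1.69 and 1.27. The means were 133 ± 31 CPM with glucose oxidase and 71.0 ± 45.2 CPM in controls (SD, n = 4 each). The blocked log2 change was 1.07 ± 0.17 with an adjusted p of 0.000194 (edgeR), against 0.90 ± 0.39 and an adjusted p of 0.665 without the block.

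KLF4 and KLF6 are zinc finger factors of the Krüppel-like family, and KLF4 is known for promoting the differentiation of epithelia. KLF4 lies at chr9:107484852-107490482 on the minus strand and had 66.6, 80.1, 59.7 and 46.8 CPM in glucose oxidase libraries 1 to 4, against 50.1, 69.9, 16.7 and 20.2 CPM in controls 1 to 4. Controls 1 and 2 lay within the range of the treated libraries and controls 3 and 4 far below it, so the groups overlapped. Its changes by pair were 0.41, 0.20, 1.83 and 1.21 on the log2 scale, and the blocked fit gave 0.89 ± 0.19 with an adjusted p of 0.00218 (edgeR).

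KLF6, at chr10:3775996-3785281 on the minus strand, had 74.0, 85.3, 101 and 72.9 CPM in glucose oxidase libraries 1 to 4, against 83.9, 94.6, 51.5 and 58.2 CPM in controls 1 to 4. Pairs 1 and 2 were lower with glucose oxidase and pairs 3 and 4 higher. The blocked log2 change of KLF6 was 0.24 ± 0.16 with an adjusted p of 0.365 (edgeR).

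IER2, IER3 and IER5 carry the name immediate early response; IER2 and IER5 are related nuclear proteins, and IER3, also called IEX-1, is a stress-induced regulator of cell survival. IER3, at chr6:30743199-30744554 on the minus strand, had 90.4, 66.3, 88.9 and 88.8 CPM in glucose oxidase libraries 1 to 4, against 112, 73.9, 34.4 and 35.3 CPM in controls 1 to 4. The treated values were near 90 CPM except in library 2, while controls 3 and 4 were far below every treated library and control 1 above them all. The blocked log2 change of IER3 was 0.55 ± 0.21 with an adjusted p of 0.0788 (edgeR). Over 9 alternatives that keep the block, IER3 passed in 4: with a gene length offset (5.86% of genes called higher), without a filter on low counts (3.31%), without pair 1 (5.33%) and without pair 2 (5.02%). EGR1, NR4A1, MYC and KLF4 passed in 9 of the 9, with adjusted p-values of up to 0.0498, the highest being that of KLF4. In the alternatives where IER3 did not pass, DESeq2 called 1222 of 14327 genes higher, and edgeR with DESeq2 size factors called 1239 of 17413. Total counts gave 1675 of 17413, leaving out pair 3 gave 593 of 17765 and leaving out pair 4 gave 978 of 17744. All 9 draw on the same libraries and keep the block, so they are not independent. IER3 shares 26.5% of its exon bases with IER3-AS1 on the opposite strand, which had at most 2 reads.

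IER2, at chr19:13150415-13154908 on the plus strand, had 49.7, 55.7, 45.5 and 45.3 CPM in glucose oxidase libraries 1 to 4, against 56.3, 56.2, 28.2 and 34.7 CPM in controls 1 to 4. Its treated libraries all lay between the high controls 1 and 2 and the low controls 3 and 4. An antisense gene, AC011446.2, shares 30.8% of its exon bases and had 0 reads in every library. The blocked log2 change of IER2 was 0.22 ± 0.15 with an adjusted p of 0.362 (edgeR). IER5, a single-exon gene at chr1:181088712-181092899 on the plus strand, was the member whose fitted change was below 0. It had 124, 96.8, 141 and 155 CPM in glucose oxidase libraries 1 to 4, against 156, 115, 152 and 132 CPM in controls 1 to 4. IER5 was lower with glucose oxidase in pairs 1 to 3 and higher in pair 4, and its blocked log2 change was -0.12 ± 0.15 with an adjusted p of 0.653 (edgeR).

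**Figure D2:**
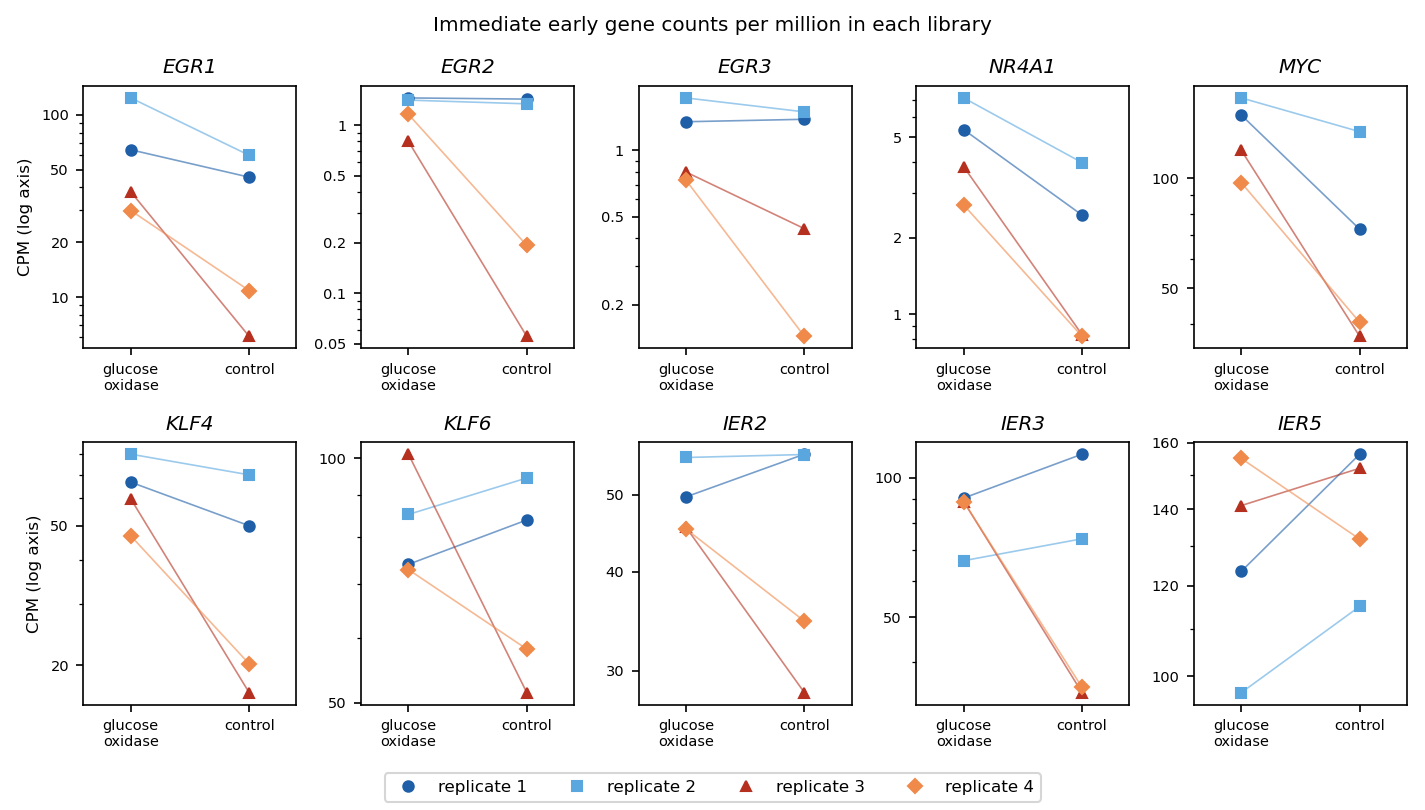
CPM of each gene in each library on log axes with a separate range per panel; lines join a glucose oxidase library (left) to the control of equal number (right). In every gene but IER5 both control replicates 3 and 4 lie below control replicates 1 and 2, while the 4 glucose oxidase libraries lie closer together.

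No member had all 4 glucose oxidase libraries above all 4 controls, where 2.42% of the genes tested did. EGR1, EGR2, MYC, KLF4 and NR4A1, 5 of the 10, were higher in all 4 pairs, against 16.9% of genes. IER2, IER3 and KLF6 were lower in pairs 1 and 2 and higher in pairs 3 and 4, a pattern of 6.27% of genes. On the log2 scale the median change of the 10 members was -0.01 for pair 1, 0.13 for pair 2, 1.53 for pair 3 and 1.30 for pair 4, while the median over all genes was within 0.02 of 0 each time. All 10 members were higher in pair 4 and 9 were higher in pair 3, all but IER5.

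**Figure D3:**
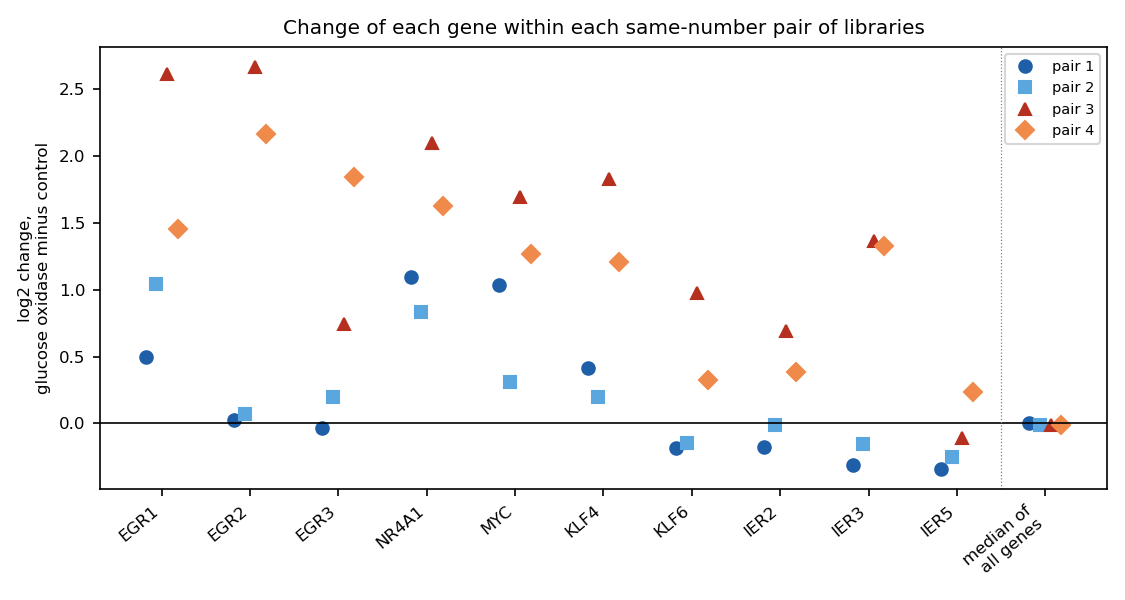
Log2 change in CPM (prior count 2), glucose oxidase minus control, in each same-number pair for each gene, with the median of all tested genes at the right. Pairs 3 and 4 lie above pairs 1 and 2 in every gene, for IER5 at -0.11 and 0.23.

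For most members the controls were spread more widely than the glucose oxidase libraries. In 9 of the 10 members, all but IER5, both control libraries 3 and 4 were below both control libraries 1 and 2, against 36.3% of genes. In 7 members, EGR1, EGR2, EGR3, IER3, MYC, KLF4 and NR4A1, the mean of controls 3 and 4 on the log2 scale was at least 2-fold below that of controls 1 and 2, against 12.7% of genes. The median gap, replicates 3 and 4 minus replicates 1 and 2, was -0.50 in glucose oxidase libraries and -1.53 in controls on the log2 scale, where all genes had medians of -0.05 and -0.06. The gap was smaller in glucose oxidase libraries than in controls in 9 members and in 63.4% of genes, and the coefficient of variation was smaller in 9 members and in 63.7% of genes; the exception was IER5 in both counts.

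EGR1 shows the scale of that gap. In the glucose oxidase libraries its means were 33.8 CPM in replicates 3 and 4 and 94.1 CPM in replicates 1 and 2, a log2 gap of -1.41. In the controls they were 8.47 CPM in replicates 3 and 4 and 52.8 CPM in replicates 1 and 2, a log2 gap of -2.67, and 0.660% of genes had a lower control gap. Set against controls 1 and 2, glucose oxidase libraries 3 and 4 were lower by a log2 difference of -0.64 for EGR1, -0.49 for EGR2, -0.84 for EGR3 and -0.31 for IER2. The same difference was 0.13 for MYC, -0.16 for KLF4, 0.04 for NR4A1, -0.04 for IER3, -0.05 for KLF6 and 0.14 for IER5. These last 6 genes thus stood, with glucose oxidase in replicates 3 and 4, near their level in untreated replicates 1 and 2.

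Fitted within each set of replicates, 6 members rose in replicates 3 and 4: EGR2 by a log2 change of 2.89 ± 0.63, EGR1 by 1.99 ± 0.33, NR4A1 by 1.98 ± 0.38, KLF4 by 1.53 ± 0.22, MYC by 1.49 ± 0.26 and IER3 by 1.35 ± 0.23 (SE; edgeR, adjusted p between 0.00194 and 0.0304), where 1.34% of genes were called higher. In replicates 1 and 2 edgeR called 0 members, where 0.0689% of genes were called higher. EGR1, MYC and NR4A1 had unadjusted p-values of 0.0156, 0.0304 and 0.00848 in that edgeR fit. An unadjusted p below 0.05 was common there, with 3057 of the 17413 genes tested. The log2 changes in replicates 1 and 2 were 0.95 ± 0.31 for NR4A1, 0.83 ± 0.30 for EGR1 and 0.61 ± 0.25 for MYC, and between -0.30 and 0.29 for the other 7 members. Both glucose oxidase libraries of replicates 3 and 4 were above both controls in 9 members, all but IER5, against 27.0% of genes. In replicates 1 and 2 that held for EGR1, MYC and NR4A1, 3 of 10, against 22.4% of genes. The sets were found from the same values, so p-values of fits by set describe these libraries only. Fits of each set alone with the block, which rest on 2 pairs each and were added after the data were seen, called EGR1, MYC and NR4A1 in replicates 1 and 2 (4.52% of genes called higher) and 8 members, all but EGR3 and IER5, in replicates 3 and 4 (5.41%).

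Whether the change differed between the sets was tested as an interaction. The sets were found from these same expression values, so the p-values of this test describe these libraries only. Without the block edgeR called no member, where 0.212% of genes had a more positive change in replicates 3 and 4. In that fit 7 members, and 1462 of the 17413 genes tested, had an unadjusted p below 0.05. IER3 came nearest, with an adjusted p of 0.0695 (edgeR). With the block the difference passed for IER3, 1.59 ± 0.25 on the log2 scale with an adjusted p of 0.000422, for KLF4, 1.22 ± 0.26 with an adjusted p of 0.0157, and for EGR1, 1.24 ± 0.31 with an adjusted p of 0.0423, where 0.735% of genes passed in that direction. The difference of EGR2 was larger, 2.88 ± 0.85, but did not pass (adjusted p 0.117, edgeR with the block), nor did those of MYC, 0.81 ± 0.28, and NR4A1, 0.98 ± 0.46. Without the block, IER3 and KLF4 passed when no filter on low counts was used (0.272% of genes), and IER3 passed on total counts (0.218%) and when treated replicate 1 or control replicate 2 was left out.

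**Figure D4:**
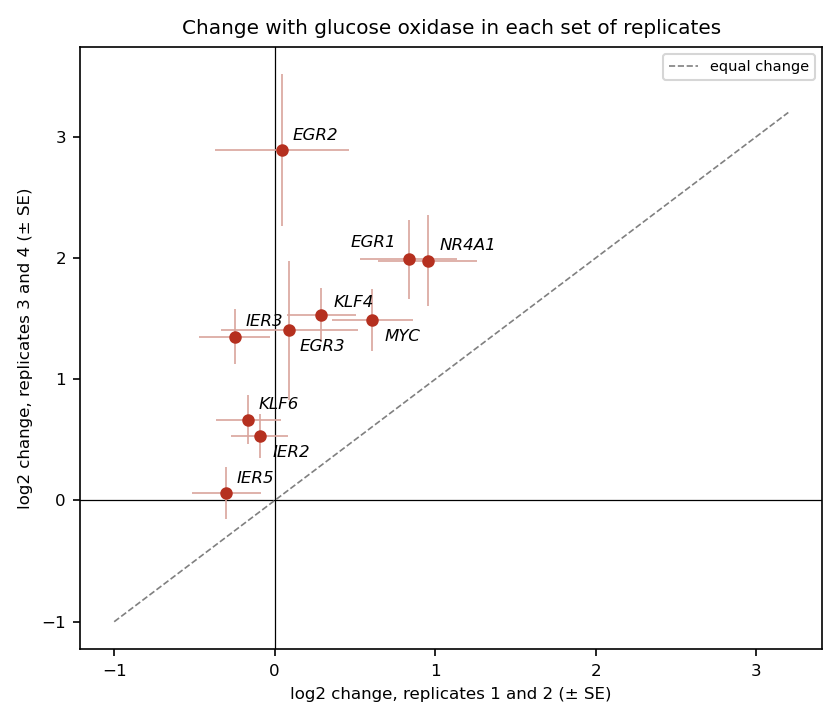
Fitted log2 change (± SE, edgeR) of each gene in replicates 1 and 2 (x axis) against replicates 3 and 4 (y axis); the dashed line marks equal change. All 10 genes lie above the line, from IER5 at -0.30 and 0.06 to EGR2 at 0.05 and 2.89.

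Among close paralogues of the members 2 of 10 rose and 1 fell with the block, where 7.51% of all genes rose and 6.97% fell. Of 12 listed paralogues 10 were tested; KLF10 rose by a log2 change of 0.71 ± 0.14 (adjusted p 0.00135) and KLF5 by 0.59 ± 0.15 (adjusted p 0.00715), and IER5L fell by 0.60 ± 0.15 (adjusted p 0.00878, edgeR with the block). KLF10 is a TGF-beta induced Krüppel-like factor and KLF5 a factor of proliferating epithelia. NR4A2, chosen after its values were seen as the nearest relative of NR4A1, had 3.305 ± 0.694 CPM with glucose oxidase and 2.99 ± 0.51 CPM in controls (SD, n = 4 each), a log2 change of 0.14 ± 0.23 that did not pass. EGR4 and MYCN were below the filter on low counts. With the term for the sets in place of the block KLF10 and KLF5 passed and IER5L did not (adjusted p 0.0524, edgeR). That fit called 3.72% of all genes higher and 3.07% lower.

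Of 10 immediate early genes of the AP-1 type, leucine zipper proteins that pair with each other on DNA, 3 rose and none fell with the block, where 7.51% of all genes rose. FOSL1 rose by a log2 change of 1.07 ± 0.15 (adjusted p 4.87e-05), ATF3, which is induced by many stresses, by 1.11 ± 0.25 (adjusted p 0.00361) and MAFF by 0.86 ± 0.22 (adjusted p 0.00822, edgeR with the block). FOS and JUN, the founding members of AP-1 and named after their values were seen, had log2 changes of 0.25 ± 0.22 and -0.37 ± 0.17 that did not pass. Of 20 other genes of the early serum response, 6 rose and none fell. With the set term 4 rose, where 3.72% of all genes did. HBEGF, a membrane-bound growth factor for the EGF receptor, rose by 1.97 ± 0.28 (adjusted p 6.68e-05), PHLDA1 by 1.41 ± 0.28 (adjusted p 0.00156) and ARC by 1.42 ± 0.33 (adjusted p 0.00452). SRF itself, looked up for its role, averaged 25.7 ± 1.8 CPM with glucose oxidase and 22.6 ± 2.7 CPM in controls, a log2 change of 0.19 ± 0.14 that did not pass. The median log2 change was 0.20 in the AP-1 list and 0.29 in the other early genes, against 0.74 for the 10 members and -0.01 over all genes.

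Of the genes that act upstream, 4 of 12 promoter-binding factors and 1 of 14 kinases rose, where 7.51% of all genes did; the share of the kinases was near that of all genes. Of the 14 kinases and scaffolds of the ERK, p38 and ERK5 routes BRAF rose, by a log2 change of 0.48 ± 0.14 (adjusted p 0.0217), and none fell. Of 12 factors that bind or act at immediate early promoters 4 rose and none fell, among them the histone acetyltransferases CREBBP, by 0.77 ± 0.15 (adjusted p 0.00133), and EP300, by 0.79 ± 0.17 (adjusted p 0.00273), and the ternary complex factor ELK4, by 0.58 ± 0.15 (adjusted p 0.00995, edgeR with the block). With the term for the 2 sets in place of the block, CREBBP alone of the 12 and none of the 14 passed. That fit called 3.72% of all genes higher.

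Of 14 listed inhibitors in the same pathway 4 rose and 1 fell with the block, where 7.51% of all genes rose and 6.97% fell. With the set term 3 rose, where 3.72% of all genes did, and none fell; DUSP10 did not pass (adjusted p 0.112, edgeR). DUSP5, a nuclear phosphatase of ERK, rose by a log2 change of 1.29 ± 0.23 (adjusted p 0.000480), SPRED2 by 0.84 ± 0.17 (adjusted p 0.00149) and SPRY4 by 1.25 ± 0.26 (adjusted p 0.00198); SPRED2 and SPRY4 restrain signalling by Ras and Raf. DUSP10, a phosphatase of p38 and JNK, fell by 0.42 ± 0.14 (adjusted p 0.0475, edgeR with the block). NAB1 and NAB2, corepressors that bind EGR1, EGR2 and EGR3 and named for that role, had log2 changes of -0.02 ± 0.16 and 0.05 ± 0.15 that did not pass. NAB2 had 35.3 ± 5.0 CPM with glucose oxidase and 34.04 ± 4.61 CPM in controls (SD, n = 4 each).

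Of 18 genes reported as EGR1 targets in human cells 7 rose and none fell with the block, where 7.51% of all genes rose. With the set term 4 rose, where 3.72% of all genes did, ICAM1, GDF15 and CDKN1A among them. ICAM1, a leukocyte adhesion molecule, rose by a log2 change of 1.34 ± 0.17 (adjusted p 1.85e-05), the stress cytokine GDF15 by 1.92 ± 0.31 (adjusted p 0.000186) and the cell cycle inhibitor CDKN1A by 0.62 ± 0.16 (adjusted p 0.00865, edgeR with the block). The median log2 change of that list was 0.23. These genes have many other regulators, and binding of EGR1 was not measured.

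Around MYC, 2 of 12 partners and antagonists rose and 2 fell with the block, where 7.51% of all genes rose and 6.97% fell. Of 12 partners and antagonists MXD1 rose by a log2 change of 0.91 ± 0.15 (adjusted p 0.000339) and MGA by 0.58 ± 0.15 (adjusted p 0.0105), while MXD3 fell by 0.98 ± 0.16 (adjusted p 0.000244) and MXD4 by 0.86 ± 0.15 (adjusted p 0.000422, edgeR with the block); the MXD proteins compete with MYC for the partner MAX. MXD3 had 74.0 ± 24.9 CPM with glucose oxidase and 151 ± 69 CPM in controls (SD, n = 4 each). Of 30 widely listed MYC target genes 6 rose and 3 fell with the block, where 7.51% of all genes rose and 6.97% fell. With the set term 4 rose and 1 fell, where 3.72% of all genes rose and 3.07% fell. NME1 and LDHA did not pass with it (adjusted p 0.0859 and 0.0667, edgeR). TERT, the catalytic subunit of telomerase, rose by 1.38 ± 0.26 (adjusted p 0.000875), the pyrimidine synthesis enzyme CAD by 0.65 ± 0.14 (adjusted p 0.00334) and MYBBP1A by 0.60 ± 0.15 (adjusted p 0.00633). The chaperone HSPE1 fell by 0.75 ± 0.15 (adjusted p 0.00175), NME1 by 0.54 ± 0.15 (adjusted p 0.0148) and lactate dehydrogenase LDHA by 0.65 ± 0.19 (adjusted p 0.0238). The median log2 change of the MYC targets was 0.02, beside -0.01 over all genes.

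**Figure D5:**
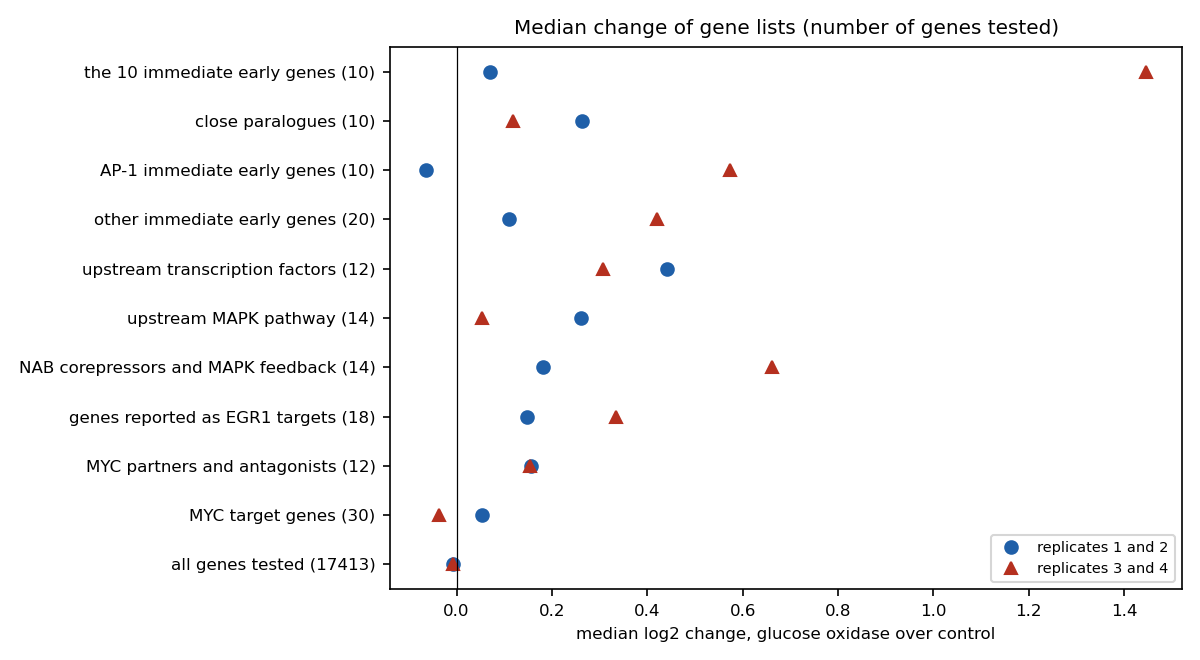
Median fitted log2 change of each gene list, glucose oxidase over control, in replicates 1 and 2 (circles) and replicates 3 and 4 (triangles), with the number of genes tested in brackets. The 10 immediate early genes are at 0.07 and 1.45, the AP-1 list at -0.06 and 0.57, and all genes at -0.01 in both sets.

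A more positive change in replicates 3 and 4 than in replicates 1 and 2 was also seen in parts of the neighbouring lists. With the block, the difference between the sets passed in that direction for 0.735% of all genes. In the AP-1 list it passed for JUN, JUNB, ATF3 and MAFF. It passed for PLK3, CYR61, PHLDA1, GADD45A and HBEGF of the other early genes, for DUSP4, DUSP5, DUSP6 and SPRY4 of the feedback genes, and for PLAU, GDF15 and VEGFA of the reported EGR1 targets. It passed for no gene of the paralogue, upstream factor, kinase, MYC partner or MYC target lists, which is near the share of all genes. The genes that passed were named because the count was small, after their values were seen. In replicates 1 and 2 the log2 change was below 0 for JUN, at -0.85, and for CYR61, at -0.59, beside 0.13 for JUN and 0.45 for CYR61 in replicates 3 and 4. HBEGF changed by 0.87 in replicates 1 and 2 and by 3.18 in replicates 3 and 4, and GDF15 by 0.71 and 3.18, on the log2 scale.

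Likeness of pattern was measured over the 4 pairs as the root mean square difference between log2 changes, among the 10881 protein-coding genes that averaged 5 CPM or more. Nearest to NR4A1 was ICAM1, at 0.0821, followed by CFB and SRCIN1. Nearest to EGR1 were IRAK2, at 0.166, BDKRB2 and EREG. The 3 nearest to EGR2 were STC2, PHLDA1 and TNFRSF11B, and to EGR3 LTB, MAG and PCK2. For MYC they were SGPP2, ZNF239 and ANGPT4, and for KLF4 ADAM8, ERRFI1 and SLC1A4. KLF6 was nearest to LMBR1L, STK36 and TUFT1, IER2 to ATP2C2, IL4R and TSSK6, IER3 to GPT2, HSH2D and GADD45A, and IER5 to ZMYND19, RBMX2 and MTCH1. Among the members, IER2 and KLF6 were the closest to each other, at 0.160, and MYC and KLF4 came next, at 0.327. With 4 pairs only, these are descriptions.

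In the authors' deposited table of log2 fold changes, glucose oxidase over control, EGR1 stood at 1.07 with an adjusted p of 0.649, MYC at 0.91 with 0.449, NR4A1 at 1.23 with 0.417 and KLF4 at 0.70 with 0.660. In the same deposited table of the authors IER5 was at -0.11, and no member had an adjusted p below 0.05, while 36 genes of the table did with a higher level and 40 with a lower one. Those values are close to the fit without the block, in which EGR1 was at 1.06, MYC at 0.90, NR4A1 at 1.22 and KLF4 at 0.69.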

How the data were processed

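Total RNA of 4 glucose oxidase and 4 control cultures was sequenced. The submitters' processing notes name HISAT2 2.0.5, featureCounts 1.5.0-p3 and DESeq2 1.20.0, with GRCh38.p13 as the build and the strand setting not given in the sources used here. The authors deposited raw counts, 1 whole number for each gene and library. The FPKM values, which the authors also deposited, were scaled to their size factors and served for levels between genes. The authors' deposited comparison table gives a size-factor-normalised signal, a log2 fold change and a p-value with its adjusted p-value; the signal was not used.

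The test of the counts was that of edgeR 4.0.16 in R 4.3.3 (TMM, filterByExpr, quasi-likelihood test, Benjamini-Hochberg adjusted p below 0.05 over all 17413 genes tested), with the group as the only term. Alternatives were the replicate number as a block, a term for replicates 1 and 2 against 3 and 4, DESeq2 1.42.0, other scalings, no filter, and each library or pair left out. CPM values are TMM-scaled. Changes by pair are differences of log2 CPM with a prior count of 2. The SE beside an edgeR change was worked back from the test, as the absolute log2 change over the square root of its F statistic. The scripts were checked on simulated data, in which libraries of equal number shared their base levels. That check therefore cannot show whether equal numbers mark matched cultures here.

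Deviations from group means correlated across genes at 0.532, 0.678, 0.590 and 0.503 between same-number libraries, all over the minimum of 0.1, so the blocked fit's calls are printed. Libraries of other numbers in the same set correlated at 0.443 to 0.652, so this does not show pairing by number. Libraries of a group differed by more than sampling noise (chi-square over degrees of freedom 11.0 to 261); where cultures were not separate, p-values measure technical spread. The lists and the members were chosen with earlier results of these data known. Named genes were all members, up to 3 genes of each other list in each direction by smallest adjusted p in the blocked fit, and the 3 genes most like each member; any others are marked in the text. Promoter windows are RefSeq's (GRCh38.p14), coordinates of genes are GENCODE release 29's.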

Additional observations from a re-analysis of the deposited data

Results flagged for a closer look

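The change of 3 members differed between the sets of replicates by a test of the difference itself, with the replicate number as a block. Replicates 3 and 4 minus replicates 1 and 2, the difference in log2 change was 1.59 for IER3, 1.24 for EGR1 and 1.22 for KLF4. Without the block none of the 3 passed in the fit with the low-count filter, TMM and all libraries; IER3 and KLF4 passed without the filter, and IER3 also on total counts and without treated replicate 1 or control replicate 2. The sets were found from the expression values, so the difference describes these libraries.

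IER3 in glucose oxidase replicate 2, at 66.3 CPM, lay apart from the other 3 glucose oxidase libraries, which were at 88.8 to 90.4 CPM. The gap to its nearest neighbour, as a share of the group's range, was above Dixon's critical value for 4 libraries, which chance alone exceeds in about 1 of 20 groups. With 10 members in both groups, such a gap somewhere in the list is not unusual at that rate. Control replicate 2 was at 73.9 CPM.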

How the results depend on the processing

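Whether the replicate number enters as a block decides the count of calls. The unblocked edgeR fit called 0 genes and 0 members; with the block it called 2521 genes and 4 members, with the set term 1182 and 4. DESeq2 called 76 genes and 0 members without the block and 2530 and 4 with it; edgeR with DESeq2's size factors and the block called 2568 and 4. With the block, a length offset gave 2194 and 5, no low-count filter 2293 and 5 (34 and 0 without the block), and total counts 2210 and 4. Leaving out pairs 1 to 4 in turn gave 1634, 1502, 1100 and 1886 genes and 5, 5, 4 and 4 members. Replicates 1 and 2 alone gave 1628 genes and 3 members, replicates 3 and 4 alone 1575 and 8. On total counts the median of all genes moved to 0.10 with the block (1675 higher, 535 lower, against 1308 and 1213), and the members' median was 0.84.

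The difference between the sets passed for 40 genes and 0 members, for 157 and 3 with the block, for 127 and 2 without a filter, for 1 member on total counts, and for 9 to 73 genes and 0 to 1 member with a library left out.

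Directions reversed for IER2 (-0.10), IER3 (-0.25) and KLF6 (-0.17) in replicates 1 and 2 alone, for IER5 in replicates 3 and 4 alone (0.11) or without treated replicate 2 (0.0266, the highest of -0.2068 to 0.0266 over the libraries left out), and for KLF6 without pair 3 (-0.0022, blocked); none of these values passed the test.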
